A study of Mus musculus with 30 samples.

Results

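Poly(A) RNA of bead-selected retinal ganglion cells (RGCs) of newborn mice was compared between mutants and wild type (WT), with 3 libraries per group. RGCs are the output neurons of the retina and send their axons to the brain through the optic nerve. The genes described are all those whose mean normalised count over the 6 libraries was 10 or more, 15282 of the 38720 gene symbols listed, and the test below could be fitted to 15276 of them. Just inside that minimum lay 4930444P10Rik with a mean of 10.0129 and Ermap with 10.018, and just outside it Zfp541 with 9.9977 and Usp18 with 9.9992.

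All retinas were taken at P0, the day of birth, digested with papain and passed over magnetic beads carrying an anti-CD90 antibody (CD90 is the Thy1 surface protein). The WT mice are labelled by strain as C57BL/6. The mutants are labelled by their alleles with no strain, either Math5Cre; Ezh2f/f, the single knockout, or Math5Cre; Ezh2f/fG9af/+, the double knockout, and the comparison table says only that its libraries are mutant. G9a is the product of Ehmt2, and in the second genotype 1 of its copies is floxed. In both, Cre recombinase under Math5 (Atoh7) control limits recombination to cells that have switched Atoh7 on and to their progeny, so cells outside that lineage keep the floxed alleles intact. The study's design text names the double knockout alone beside WT, with its G9a genotype written G9a+/-. Mutant non-RGC cells, the retinal cells left after bead selection, were measured as well and are given here for comparison of levels only. Chromatin samples of the same study are not analysed here.

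Ezh2 is the enzyme of Polycomb repressive complex 2, whose mark on lysine 27 of histone H3 keeps developmental genes silent. G9a methylates histone H3 at lysine 9. Ganglion cells are the earliest neurons born in the retina. At birth the neighbouring progenitors still divide and make rods, amacrine cells, bipolar cells and Mueller glia, while the ganglion cells are extending axons and building up the channels and receptors of excitable cells. Genes of both kinds of cell are therefore measured in a fraction that is enriched for, and not limited to, ganglion cells. In a bulk sample, fewer cells of a type and less RNA per cell cannot be told apart.

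The deposited table gives only the mean of each group, a sum of whole reads each divided by its library's size factor, and the reads of each library were recovered from those means. The 6 libraries held between 10551825 and 12259494 reads assigned to genes. A normalised count is a library's reads for a gene divided by its size factor. The numbers 1 to 3 follow falling size factor in each group, because the table carries no sample numbers, and no number is shared between groups. Which animals each library holds is not stated in the labels, so the p-values reflect how much these libraries vary, which may be technical. Most libraries held RNA of both sexes (Xist and Ddx3y, below) and so came from more than a single animal. Whether libraries share animals is not stated. WT library 3 and mutant library 1 stood apart. The median absolute log2 distance of WT library 3 from the mean of the other WT libraries was 0.238, against 0.144 and 0.145 for the others, and that of mutant library 1 was 0.198, against 0.125 and 0.116. Without them the median coefficient of variation of a gene fell from 11.8% to 4.48% in WT and from 9.54% to 3.78% in mutants.

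Ezh2 (chromosome 6, 47530274 to 47595270, GRCm38) had normalised counts of 1144, 1154 and 1568 in the WT and 1944, 1924 and 1851 in the mutant libraries, higher in every mutant library than in any WT library (log2 difference 0.58, SE 0.13, limma adjusted p = 0.0292). Ehmt2 (chromosome 17, 34898463 to 34914073) had 3712, 3554 and 3839 in WT and 2342, 2891 and 3026 in mutants, with no overlap (log2 difference -0.43, SE 0.11, limma adjusted p = 0.0332). Atoh7 (chromosome 10, 63099785 to 63101280) had 78.0, 81.0 and 274 in WT and 186, 365 and 345 in mutants, and the groups overlapped at WT library 3 (limma adjusted p = 0.113). Reads were counted per gene and not per exon, so a transcript without its floxed exons adds to the count, and no check of the deletion or of the labels follows from these values.

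Across the genome, on the scale of limma log2 differences used for single genes throughout, 3971 of the 15276 tested genes, 26.0%, differed at a limma adjusted p under 0.05. Of these 2092 genes (13.7%) were higher and 1879 (12.3%) lower in the mutants, and more than 2-fold changes were counted for 462 and 660 of them. In 51.1% of the tested genes no mutant value fell within the WT range or the reverse, with the mutants above in 26.2% and below in 24.9%. By the authors' deposited table, an adjusted p under 0.05 was reached by 3002 of the 15282 genes, 19.6%. The median log2 ratio of the group means over all tested genes was 0.0115, with quartiles of -0.323 and 0.296, so the shift was not one-sided. Only 10 genes had a limma adjusted p under 0.01. The number of calls depended on which libraries were fitted. With limma it was 6475 when WT library 3 was left out and 2280 when mutant library 1 was, but only 9, 8, 3 and 9 genes without WT library 1, WT library 2, mutant library 2 and mutant library 3. All 3971 genes kept their sign in each of these fits, but they were selected on the same libraries, so this outcome was largely fixed in advance.

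**Figure D1:**
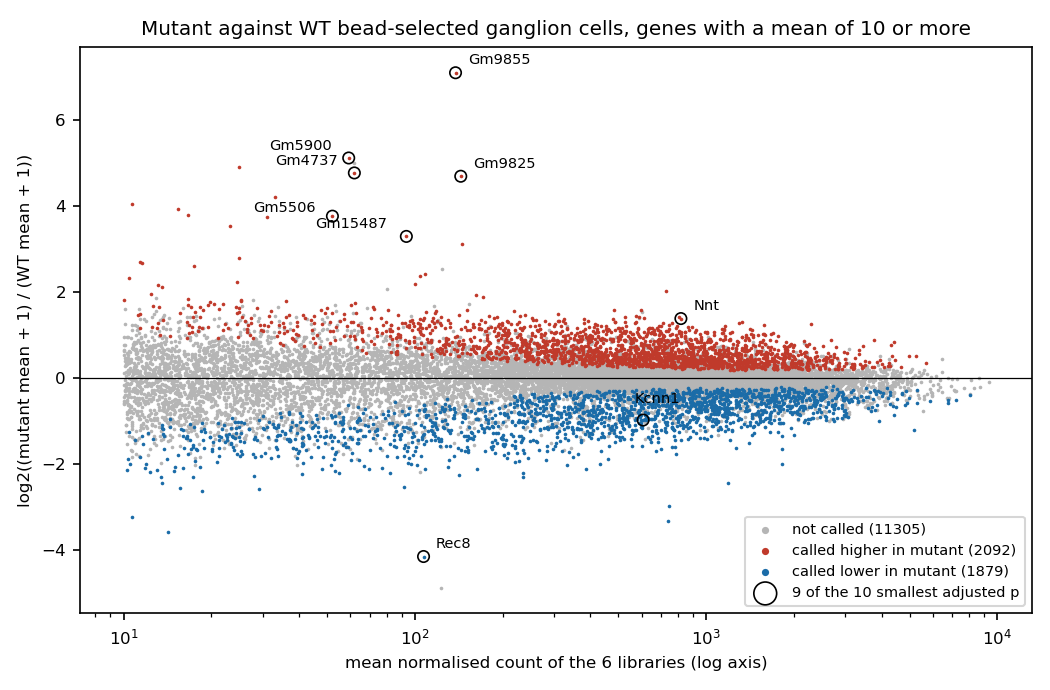
Log2 ratio of the mutant to the WT mean (each plus 1) against the mean normalised count of the 6 libraries (log axis), for the 15276 tested genes. Red points are the 2092 genes called higher and blue points the 1879 called lower at a limma adjusted p under 0.05, grey points were not called, and circles mark 9 of the 10 genes with the smallest adjusted p, 7 of them above 0 and 2 below.

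Of the 10 genes with the smallest adjusted p, 9 are described, and each differed by far more than the spread between libraries. Rec8, which encodes a cohesin subunit of meiosis (chromosome 14, 55618002 to 55625395), had 215, 198 and 197 in the WT libraries against 11.0, 10.6 and 9.95 in the mutants. It was low in every mutant library and the difference was -4.15 on the log2 scale (SE 0.18, limma adjusted p = 0.00167). Gm9855, a predicted gene, was the only gene with a mean of 50 or more in 1 group and under 2 in the other, at 1.95, 1.04 and 0 in WT and 267, 286 and 272 in mutants. The predicted gene Gm4737 (chromosome 16, 46152985 to 46155077) had 3.90, 3.11 and 3.27 in WT and 111, 123 and 127 in mutants. Gm9825 had 6.82, 11.4 and 10.9 in WT and 288, 268 and 277 in mutants. These 3 predicted genes were near background in WT and well expressed in each mutant library.

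Gm15487 had 19.5, 15.6 and 14.2 in WT and 178, 166 and 168 in mutants. Gm5506 had 4.87, 6.23 and 7.63 in WT and 97.2, 99.3 and 97.5 in mutants. Each of the mutant values exceeded every WT value. Gm5900 (chromosome 7, 104949176 to 104950435) likewise had 3.90, 2.08 and 1.09 in WT and 126, 118 and 105 in mutants. Reads of predicted genes can come from near-identical copies elsewhere, and the assignment of such reads is not stated in the sources, so these 6 Gm genes are uncertain as to locus.

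Nnt, which encodes the mitochondrial nicotinamide nucleotide transhydrogenase (chromosome 13, 119335527 to 119409257), rose from 414, 435 and 508 in WT to 1255, 1193 and 1109 in mutants (log2 difference 1.39, SE 0.10, limma adjusted p = 0.00565). Kcnn1, which encodes a calcium-activated potassium channel subunit (chromosome 8, 70843158 to 70865691), fell from 837, 815 and 764 to 401, 412 and 417 (log2 difference -0.97, SE 0.07, limma adjusted p = 0.00713). The groups were far apart for both genes. In the mutant non-RGC libraries Nnt had 1224, 1269 and 1321, Rec8 14.4, 18.4 and 12.3, Gm4737 109, 135 and 142 and Gm9855 265, 238 and 274, near the mutant RGC level. Gm5506 had 93.3, 101 and 26.7 there and Gm5900 129, 127 and 66.9, so non-RGC library 3 lay well below the mutant RGC libraries for both. Kcnn1 had 281, 317 and 385, below every mutant RGC value. A deletion within Nnt is a known feature of the C57BL/6J substrain. The WT strain label gives no substrain and the mutant labels give no strain, so strain background and the mutant alleles cannot be told apart for these genes. Of the genes called with all libraries, Gm9825, Rec8 and Gm4737 alone were also called in each of the 6 fits that left out a library.

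**Figure D2:**
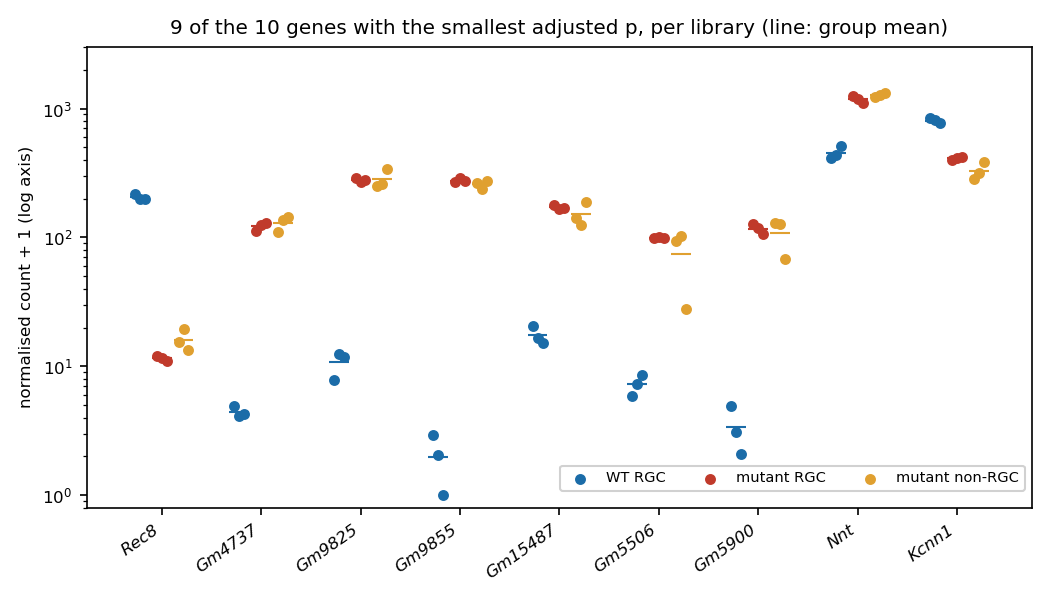
Normalised count plus 1 (log axis) of 9 of the 10 genes with the smallest adjusted p in each WT RGC, mutant RGC and mutant non-RGC library (points), with the group mean as a line. For each gene the WT points lie apart from the mutant RGC points, and the mutant non-RGC mean lies nearer to the mutant RGC mean than to the WT mean, although single non-RGC points of Gm5506 and Gm5900 lie lower.

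Ganglion cell genes were lower in the mutants. Of 30 genes that mark ganglion cells, 15 fell and 1 rose, and 29 lay below WT in every mutant library, where 24.9% of all tested genes did. The median log2 ratio of the list was -0.67, against 0.0115 over all tested genes. Slc17a6, which encodes the vesicular glutamate transporter of ganglion cells, had 2686, 2727 and 1862 in WT and 788, 1391 and 1337 in mutants (log2 difference -1.07, SE 0.25, limma adjusted p = 0.0313). Thy1, the bead target, had 2302, 2409 and 2063 in WT and 955, 1550.1 and 1456 in mutants (log2 difference -0.80, limma adjusted p = 0.0305). The lowest value of both genes was that of mutant library 1. The transcription factor genes that specify ganglion cells did not all pass. Pou4f3 passed narrowly (log2 difference -0.80, limma adjusted p = 0.049). Pou4f2 had 2846, 2915 and 2286 in WT and 902, 1866 and 1798 in mutants, and Isl1 had 1859.5, 1742 and 1486 and 615, 1322 and 1314, both with no overlap and neither called (limma adjusted p = 0.0579 and 0.105). Nhlh2, a basic helix-loop-helix gene, was the member called higher, from 954, 932 and 944 to 1281, 1142 and 1207 (log2 difference 0.36, limma adjusted p = 0.0247). In the authors' deposited table the calls of 2 of these genes were the other way round, with an adjusted p of 0.0145 for Pou4f2 and 0.153 for Nhlh2. The labelled cell type was present in all 6 libraries, as Pou4f1 had 4017, 4145 and 3800.5 in WT and 1542, 3166 and 3134 in mutant RGCs against 521, 849 and 42.2 in the mutant non-RGC libraries. Slc17a6, Thy1, Pou4f3, Pou4f2, Pou4f1 and Isl1 were picked with their values in view and not by the naming rule.

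Ion channels, which set how neurons fire, were lower as a group. Of 72 potassium channel subunit genes 25 fell and 4 rose, with a median log2 ratio of -0.72. Of 11 sodium channel subunit genes 3 fell and none rose (median -0.97), and of 23 calcium channel subunit genes 13 fell and none rose (median -0.59). Called shares of the potassium, sodium and calcium lists were 40.3%, 27.3% and 56.5%. Of all tested genes 26.0% were called, and 12.3% were called lower. Scn1a, a pore-forming sodium channel subunit gene, had 1221, 1152 and 708 in WT and 188, 335 and 434 in mutants (log2 difference -1.73, SE 0.34, limma adjusted p = 0.0258). WT library 3 was the lowest WT library for it, and the groups did not overlap. Kcnq3, which encodes a subunit of the M-current channel that restrains repetitive firing, fell from 1298, 1495 and 738 to 368, 412 and 376 (log2 difference -1.55, SE 0.25, limma adjusted p = 0.0238). The voltage-gated channel gene Kcnh5 and Kcnn2, a relative of Kcnn1, fell, with log2 differences of -1.48 and -1.18. Cacna1a, the pore gene of the P/Q-type channel that triggers transmitter release, had 3403, 3204 and 1979 in WT and 763, 1256 and 1426 in mutants (log2 difference -1.33, limma adjusted p = 0.0288). The T-type channel genes Cacna1g and Cacna1h also fell (log2 differences -0.66 and -0.38), and the mutant libraries of Cacna1g lay close together at 1257, 1246 and 1318.

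Receptors for transmitters were lower as well. Of 19 GABA and glycine receptor subunit genes 5 fell and none rose (median log2 ratio -0.67), and of 19 ionotropic glutamate receptor subunit genes 7 fell and none rose (median -0.76). Called shares were 26.3% and 36.8%, where 26.0% of all tested genes were called and 12.3% were called lower. Gria2, the AMPA receptor subunit gene that makes the channel impermeable to calcium once its transcript is edited, had 1906, 1781 and 1207 in WT and 655, 839.7 and 861 in mutants (log2 difference -1.04, SE 0.19, limma adjusted p = 0.0246). Gabra5, a GABA-A receptor subunit gene, had 334, 331 and 189 in WT and 66.0, 106 and 124 in mutants (log2 difference -1.52, limma adjusted p = 0.027). Both had WT library 3 between the other WT libraries and the mutants. The glycine receptor genes Glra2 and Glrb fell (log2 differences -0.56 and -0.61), as did the NMDA receptor genes Grin2a and Grin3a (-1.60 and -1.49). Of 88 G protein coupled receptor genes for amines, peptides or unknown ligands, 28 fell and 4 rose (median -0.39). The somatostatin receptor gene Sstr1 had 167, 157 and 84.0 in WT and 14.7, 30.8 and 39.8 in mutants (log2 difference -2.26, SE 0.43, limma adjusted p = 0.025). The serotonin receptor gene Htr5b and the adrenergic receptor gene Adra2a fell, with log2 differences of -2.18 and -1.38.

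The machinery of axons was lower by less. Of 24 genes of microtubule-associated proteins 11 fell and 1 rose (median log2 ratio -0.44), and of 11 axonal transport kinesin and kinesin light chain genes 6 fell and none rose (median -0.40). Kif5a, the neuronal conventional kinesin, had 8612, 8756 and 6913 in WT and 4250.2, 5949.9 and 5959.5 in mutants (log2 difference -0.60, SE 0.16, limma adjusted p = 0.0409). Its light chain gene Klc2 and Kif1a, which carries synaptic vesicle precursors, fell with log2 differences of -0.65 and -0.40. Tuba4a, an alpha-tubulin gene of mature neurons, had 366, 361 and 241 in WT and 105, 105 and 117 in mutants (log2 difference -1.53, SE 0.19, limma adjusted p = 0.0215), while Tubb6 rose by 0.82. Across 14 tubulin genes 3 fell and 1 rose, a called share of 28.6% against 26.0% of all tested genes. The member of the microtubule list that rose was Map7, a kinesin-1 cofactor, from 1179, 1241 and 1884 to 2469, 2268 and 2330.3 (log2 difference 0.75, limma adjusted p = 0.0313). Dync1i1, the neuronal dynein intermediate chain gene, had 257, 265 and 113 in WT and 30.3, 74.2 and 75.6 in mutants (log2 difference -1.82, limma adjusted p = 0.0373), and of 21 dynein and dynactin genes 1 fell and 2 rose.

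For mutant non-RGC cells, where most ganglion cells have been removed, levels of only 3 of these genes are given here. Each was lower there than in any mutant RGC library, and these 3 do not stand for the rest of the lists. Kcnq3 had a mean of 114 ± 24.0, Kif5a 1885 ± 659 and Tuba4a 55.1 ± 6.76 (SD, n = 3 each). The marker genes of other retinal cells, Cngb3, Gad2 and Slc1a3 among them, were higher in the same mutant RGC libraries, and their part in the lower neuronal genes was not tested. Leaving out WT library 3 raised the potassium channel calls to 46 lower and 7 higher. Leaving out mutant library 1 gave 15 lower and 4 higher. For the ganglion cell list these fits gave 16 and 20 lower. The 4 fits without another library called 0 genes of either list.

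Genes of cell division were higher in the mutants almost throughout. Of 45 genes of the DNA replication machinery 34 rose and none fell (median log2 ratio 0.66), of 33 centromere and kinetochore genes 28 rose and 1 fell (median 0.97), and of 13 mitotic kinesin genes 12 rose and none fell (median 1.07). Homologous recombination and Fanconi genes, which repair broken replication forks, had 17 of 27 higher and none lower (median 0.78). By comparison, 13.7% of all tested genes were called higher and 12.3% lower. Pole, the catalytic subunit gene of leading-strand polymerase epsilon, had 556, 576 and 702 in WT and 1062, 1208 and 1166 in mutants (log2 difference 0.91, SE 0.11, limma adjusted p = 0.0215). Rfc1, the large subunit gene of the clamp loader, had 836, 850.4 and 894 in WT and 1218, 1349.6 and 1302 in mutants (log2 difference 0.58, SE 0.07, limma adjusted p = 0.0215). No WT value of either gene reached a mutant value. Casc5, which encodes the kinetochore scaffold KNL1, had 324, 364 and 615 in WT and 1226, 1148 and 1149 in mutants (log2 difference 1.49, SE 0.23, limma adjusted p = 0.0238). Brip1, a helicase gene of the Fanconi pathway, had 164, 164 and 242 in WT and 476, 491 and 436 in mutants (log2 difference 1.32, limma adjusted p = 0.0215). Brca1 and Brca2, which act in repair by homologous recombination, rose by 1.08 and 0.76. In Casc5, Brip1 and Brca1, WT library 3 was the highest WT library.

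Of 9 cyclin genes of types A, B, D and E, 4 rose and none fell (median 0.86). The called share was 44.4%, against 26.0% of all tested genes. Those that rose were the mitotic cyclin genes Ccnb1 and Ccnb2, the S-phase cyclin gene Ccna2 and the G1/S cyclin gene Ccne2, at log2 differences of 1.25, 1.07, 1.05 and 0.89. Ccna2 had 622, 831 and 1519 in WT and 1941, 1935 and 1876 in mutants, so WT library 3 lay nearer to the mutants than to the other WT libraries. The D-type cyclin gene Ccnd1, a progenitor marker chosen after its values were seen, had 3282, 3384 and 4859 in WT and 4528, 4920.3 and 4920.1 in mutants, with overlap at WT library 3, and was not called (limma adjusted p = 0.132). The class level, the median over members of the log2 level relative to each gene's WT mean, was -0.193, -0.162 and 0.367 for replication genes in WT libraries 1 to 3 and 0.615, 0.776 and 0.690 in mutant libraries 1 to 3. Kinetochore genes had levels of -0.246, -0.209 and 0.469 in WT libraries and 0.975, 1.124 and 0.955 in mutants. Every mutant library was above every WT library in both lists. The non-RGC libraries, with their dividing progenitors, had mean counts of 1462 ± 306 for Pole and 1442 ± 165 for Casc5 (SD, n = 3 each), above the mutant RGCs. Without mutant library 1 the replication calls numbered 15 and without WT library 3 they numbered 42, all higher, and each of the 4 fits without another library gave 0. Progenitor and Mueller glia markers lay above WT in every mutant library for 20 of 28 genes, where 26.2% of all tested genes did, with none below, and their part in the higher division genes was not tested.

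The promoters of the 4 mitotic kinesin, kinetochore or cyclin genes with the smallest p are shown among those that rose and carry the letters TTTGAA, the core of the cell cycle genes homology region (CHR), an element through which the DREAM complex represses mitotic genes in resting cells. Each is the 250 bases before the RefSeq start on GRCm38.p6, written 5′ to 3′ in the direction of the gene, with TTTGAA on either strand in capitals. They are Kif15, a mitotic kinesin gene (chr9:122950831-122951080, plus strand), Cenpl, a centromere gene (chr1:161070517-161070766, plus strand), Ccnb2 (chr9:70421555-70421804, minus strand) and Kif2c, which encodes a microtubule-depolymerising kinesin (chr4:117178773-117179022, minus strand).
Kif15: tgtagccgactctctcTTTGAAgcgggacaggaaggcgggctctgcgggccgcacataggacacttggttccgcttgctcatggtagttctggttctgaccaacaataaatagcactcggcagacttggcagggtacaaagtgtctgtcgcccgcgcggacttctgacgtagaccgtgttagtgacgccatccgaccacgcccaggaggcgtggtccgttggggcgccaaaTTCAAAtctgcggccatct
Cenpl: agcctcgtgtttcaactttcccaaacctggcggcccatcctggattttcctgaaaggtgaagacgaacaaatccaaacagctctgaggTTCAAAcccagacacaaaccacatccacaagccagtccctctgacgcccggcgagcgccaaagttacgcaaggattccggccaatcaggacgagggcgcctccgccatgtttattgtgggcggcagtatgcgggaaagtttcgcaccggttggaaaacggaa
Ccnb2: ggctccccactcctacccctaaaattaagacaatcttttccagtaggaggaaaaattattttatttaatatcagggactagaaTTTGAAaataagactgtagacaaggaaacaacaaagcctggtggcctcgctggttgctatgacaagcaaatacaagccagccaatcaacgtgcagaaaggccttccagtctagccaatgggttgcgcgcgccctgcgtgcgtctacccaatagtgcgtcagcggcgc
Kif2c: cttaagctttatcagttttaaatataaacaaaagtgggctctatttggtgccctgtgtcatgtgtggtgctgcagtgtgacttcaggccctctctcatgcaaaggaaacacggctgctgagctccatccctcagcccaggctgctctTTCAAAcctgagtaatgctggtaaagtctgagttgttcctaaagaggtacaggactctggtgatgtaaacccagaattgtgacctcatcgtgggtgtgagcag
In Kif15 matches begin 234 and 19 bases before the start. The matches of Cenpl, Ccnb2 and Kif2c begin 162, 167 and 103 bases before it. TTTGAA on either strand was found in 5 of 12 mitotic kinesin promoters (41.7%), 4 of 28 centromere and kinetochore promoters (14.3%) and 5 of 37 replication promoters (13.5%), and in 18.3% of the promoters of 27025 genes. The variant TTCGAA was in 0 of 12, 2 of 28 and 2 of 37 of them and in 1.55% of all. CCAAT, the box bound by NF-Y, was in 66.7% of mitotic kinesin, 53.6% of kinetochore and 62.2% of replication promoters and in 37.5% of all. The E2F letters GGCGGGAA were in 0 of 12 mitotic kinesin, 1 of 28 kinetochore (3.57%) and 3 of 37 replication promoters (8.11%) and in 2.13% of all. TATAAA was in 8.33%, 7.14% and 8.11% of these lists and in 14.3% of all. Of 5 cyclin promoters 4 held CCAAT, 1 held TTTGAA and 0 held TTCGAA, GGCGGGAA or TATAAA. A match is a run of letters and not a shown binding site.

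Kif15 had 588, 619.9 and 959.7 in WT and 1630.1, 1578 and 1519.7 in mutants (log2 difference 1.16, SE 0.18, limma adjusted p = 0.0238). Kif2c had 318, 311 and 569 in WT and 836, 964 and 901 in mutants (log2 difference 1.23, limma adjusted p = 0.0248). Cenpl had 236, 265 and 309.7 in WT and 460.2, 439 and 418 in mutants (log2 difference 0.71, limma adjusted p = 0.0243). In all 3 genes the mutant libraries lay close together and WT library 3 was the highest WT library. Kif2c and Cenpl were taken for their promoters and not by the naming rule.

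Genes that neuronal activity induces mostly fell or did not pass. Of 43 such genes 18 fell and 1 rose, with a median log2 ratio of -0.29 and a range from -3.33 to 0.56. Ratios were below 0 in 31 of them and above 0 in 12. Over all tested genes 12.3% were called lower and 13.7% higher. Npas4, an activity-dependent transcription factor gene of neurons, had 2208, 2117 and 1696 in WT and 301, 302 and 506 in mutants (log2 difference -2.47, SE 0.22, limma adjusted p = 0.0144). The orphan nuclear receptor gene Nr4a1 had 3039, 2973 and 2294 in WT and 727, 830.0 and 1084 in mutants (log2 difference -1.66, SE 0.17, limma adjusted p = 0.0202). Both stayed far apart between the groups. Nr4a3 had 1817, 1568 and 655 in WT and 77.9, 167 and 154 in mutants (log2 difference -3.28, SE 0.45, limma adjusted p = 0.0215). Fosl2, a partner of Jun proteins, had 1822, 1504 and 646 in WT and 169.6, 166 and 168 in mutants (log2 difference -2.84, SE 0.36, limma adjusted p = 0.0215). WT library 3 was well below the other WT libraries for Nr4a3 and Fosl2. The stress and activity gene Gadd45b had 282, 315 and 278 in WT and 113, 112 and 103 in mutants (log2 difference -1.41, SE 0.12, limma adjusted p = 0.0127), and the kinase gene Sik1 fell by 1.25 on the log2 scale.

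Bdnf, which encodes brain-derived neurotrophic factor, had 561, 451 and 294 in WT and 92.6, 158 and 152 in mutants (log2 difference -1.68, SE 0.30, limma adjusted p = 0.0244). Vgf, a neuropeptide precursor gene, had 1854, 1729 and 1588 in WT and 421, 885 and 885 in mutants (log2 difference -1.31, limma adjusted p = 0.0282), and the neuronal pentraxin gene Nptx2 fell by 0.91 on the log2 scale. Other immediate early genes differed by less or did not pass. Fos had 2712, 2837 and 3000.1 in WT and 2510.2, 2022 and 2296 in mutants, with no overlap (log2 difference -0.33, limma adjusted p = 0.0453). Egr1 had 2848, 3389 and 3602 in WT and 3727, 3409.7 and 3504 in mutants (limma adjusted p = 0.391), and Arc had 151, 161 and 276 and 171, 210.2 and 190.0 (limma adjusted p = 0.98). The groups overlapped for Egr1 and Arc. Bdnf, Vgf, Nptx2, Fos, Egr1 and Arc were picked with their values in view. In the mutant non-RGC libraries Npas4 had 184, 131 and 215 and Fos 2004, 2153 and 2567. The count of lower genes was 18 without WT library 3, 15 without mutant library 1, 2 without mutant library 3 and 0 without WT library 1, WT library 2 or mutant library 2.

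Promoters are shown for the 4 activity-regulated genes with the smallest p among those that fell and carry CGTCA, the core of the cAMP response element through which CREB family factors act after calcium entry or cAMP. They were read as above from RefSeq on GRCm38.p6, with CGTCA on either strand in capitals (TGACG marks the opposite strand): Npas4 (chr19:4989972-4990221, minus strand), Nr4a1 (chr15:101266596-101266845, plus strand), Nr4a3 (chr4:48045055-48045304, plus strand) and Bdnf at its RefSeq start (chr2:109692186-109692435, plus strand).
Npas4: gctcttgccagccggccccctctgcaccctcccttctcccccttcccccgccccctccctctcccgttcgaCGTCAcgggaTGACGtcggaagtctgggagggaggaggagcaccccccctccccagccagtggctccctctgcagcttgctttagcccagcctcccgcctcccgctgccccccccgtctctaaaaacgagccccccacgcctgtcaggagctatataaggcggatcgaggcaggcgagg
Nr4a1: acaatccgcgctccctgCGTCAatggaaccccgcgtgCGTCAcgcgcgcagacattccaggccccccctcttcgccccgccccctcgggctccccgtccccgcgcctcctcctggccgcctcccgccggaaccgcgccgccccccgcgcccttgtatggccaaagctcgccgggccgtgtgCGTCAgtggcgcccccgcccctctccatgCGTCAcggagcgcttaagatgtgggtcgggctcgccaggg
Nr4a3: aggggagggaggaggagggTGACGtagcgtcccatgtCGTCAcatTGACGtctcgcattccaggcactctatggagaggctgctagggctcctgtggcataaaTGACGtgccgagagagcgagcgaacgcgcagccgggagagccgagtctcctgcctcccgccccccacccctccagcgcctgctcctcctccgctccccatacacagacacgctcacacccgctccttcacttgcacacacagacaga
Bdnf: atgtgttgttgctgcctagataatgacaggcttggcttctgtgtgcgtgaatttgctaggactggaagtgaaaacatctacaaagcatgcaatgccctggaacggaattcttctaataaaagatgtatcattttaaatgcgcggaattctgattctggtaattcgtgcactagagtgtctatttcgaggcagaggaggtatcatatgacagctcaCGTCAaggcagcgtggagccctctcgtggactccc
Nr4a1 and Nr4a3 have 4 matches each, Npas4 has 2 and Bdnf has 1. CGTCA was found in 24 of 32 promoters of activity-regulated genes (75.0%) and in 19.8% of the promoters of 27025 genes. The full palindrome TGACGTCA, which contains CGTCA on both strands, was in 5 of 32 (15.6%) and in 1.77% of all. Among the activity-regulated genes with a promoter, CGTCA was in 12 of 15 that fell (80.0%) and in 12 of 17 that did not (70.6%), so the letters did not separate them. They were also in 7 of 12 mitotic kinesin promoters (58.3%), of a list in which 12 of 13 genes rose.

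Housekeeping genes differed little. Of 81 cytosolic ribosomal protein genes 1 rose and 1 fell (2.47% called, median log2 ratio -0.04), and of 37 proteasome subunit genes 1 rose (median 0.04). Respiratory chain genes, listed by symbol, had 1 of 37 higher and 1 lower in complex I, 1 of 14 higher in cytochrome oxidase and 1 of 17 lower in ATP synthase. None of the 11 mitochondrially encoded genes and none of the 8 genes of the chaperonin TRiC passed with limma, with voom weights or in the authors' deposited table, and 0 had an unadjusted limma p under 0.05. Counts of these genes varied less over the 6 libraries than those of other genes. The median ratio of variance to mean was 1.61 for ribosomal protein genes, 9.48 for all tested genes and 26.0 for potassium channel genes. The variance is that of the 6 libraries together, so it includes the difference between mutants and WT and is not a measure of spread within groups. Of the 81 ribosomal protein genes, 21 had a variance below their mean. Removal of duplicate reads limits how many reads a short abundant transcript can give, and its part in these small differences was not tested. Rpl34, a large-subunit protein gene, had 420.1, 451 and 487 in WT and 235, 329.7 and 331 in mutants (log2 difference -0.61, SE 0.16, limma adjusted p = 0.0362), and ribosomal protein genes have many processed copies among which reads can be split. The p53-responsive relative Rps27l rose by 0.58. The member of the complex I list that rose was Ndufa4l2 at 0.93, which is there by its symbol and is not an established complex I subunit. The cytochrome oxidase gene was the tissue-restricted Cox4i2 at 1.15. Mitochondrial ribosomal protein genes had 3 of 75 higher and 1 lower, although 26 of the 75 lay above WT in every mutant library, where 26.2% of all tested genes did.

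Metabolic enzymes held genes of both directions. Of 21 glycolysis genes 5 fell and 2 rose (median -0.02). Pfkp, the platelet-type phosphofructokinase gene, had 2963, 2227 and 2146 in WT and 1041, 1267 and 1233 in mutants (log2 difference -1.04, SE 0.14, limma adjusted p = 0.0215). The neuronal enolase gene Eno2 and the neuronal glucose transporter gene Slc2a3 fell with log2 differences of -0.77 and -0.92. Hk2, the inducible hexokinase gene, rose from 339, 337 and 381 to 846, 579 and 555 (log2 difference 0.88, limma adjusted p = 0.0251), with the highest value in mutant library 1. In the citric acid cycle 2 of 21 genes rose and 1 fell, and Suclg2, which encodes the GTP-forming succinyl-CoA ligase subunit, had 118, 114 and 216 in WT and 329, 401 and 312 in mutants (log2 difference 1.27, limma adjusted p = 0.0268). Cholesterol synthesis genes were lower, with 6 of 21 called lower and none higher, and 17 lay below WT in every mutant library (median -0.31). Over all tested genes 12.3% were called lower and 24.9% lay below in this way. Sc5d, a late enzyme of the pathway, had 859.6, 859 and 828 in WT and 527, 615 and 623 in mutants (log2 difference -0.53, SE 0.09, limma adjusted p = 0.0238). Pmvk, Cyp51 and Hsd17b7 of the same pathway fell with log2 differences of -0.62, -0.35 and -0.58. Mutant library 1 was the lowest library for these 4 genes. Of 21 V-ATPase genes, whose pump acidifies vesicles, 5 fell and 2 rose, and the neuronal subunit gene Atp6v1g2 fell by 0.92 on the log2 scale.

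**Figure D3:**
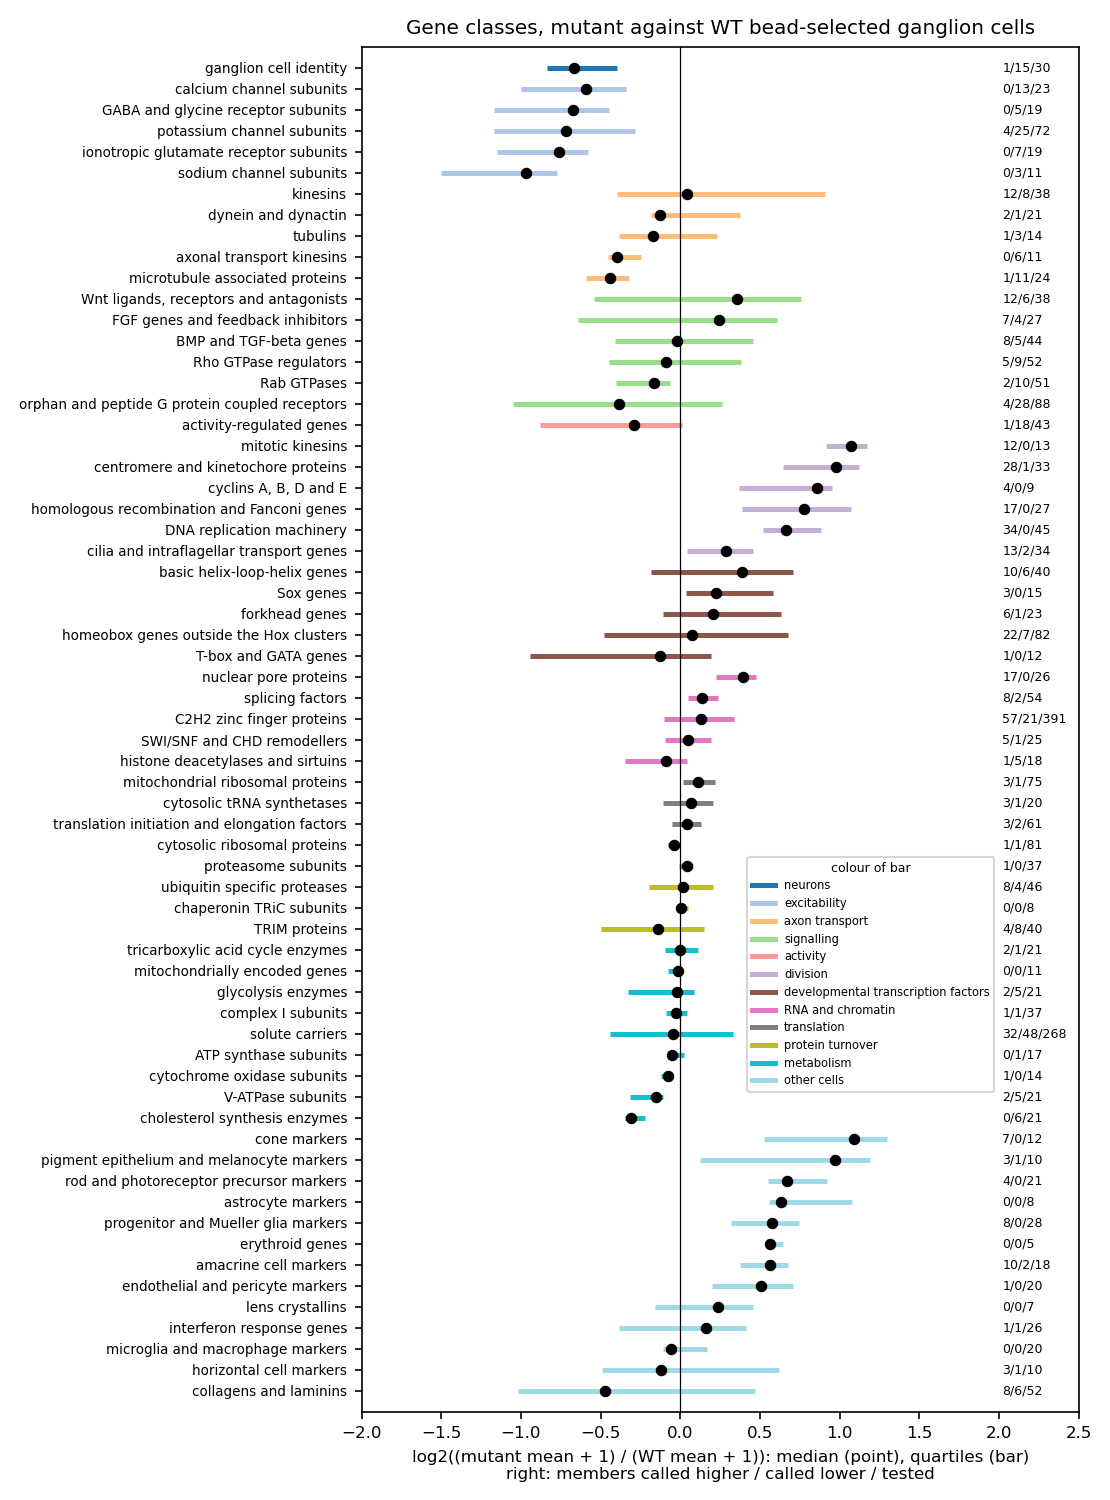
Median (point) and quartiles (bar) of the log2 ratio of mutant to WT means (each plus 1) for 64 gene classes, coloured by theme, with the members called higher, called lower and tested at the right. Division classes lie to the right of 0, ganglion cell and channel classes to the left, and translation and respiratory chain classes close to 0.

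Genes of the nucleus differed by class. Of 26 nuclear pore genes 17 rose and none fell (median log2 ratio 0.39), and their class level was 0.418, 0.384 and 0.366 in mutant libraries 1 to 3 against -0.052, -0.048 and 0.080 in WT. Ndc1, which anchors the pore in the nuclear envelope, had 651, 708 and 814 in WT and 1284, 1229 and 1200.4 in mutants (log2 difference 0.78, SE 0.09, limma adjusted p = 0.0215). Nup210, a membrane nucleoporin gene, had 1525, 1474 and 1606 in WT and 2157, 2156 and 2254 in mutants (log2 difference 0.51, SE 0.06, limma adjusted p = 0.0215). The spread within each group was small for both. Of 54 splicing factor genes 8 were called higher and 2 lower (median 0.14), and the neuronal gene Snrpn fell (1578, 1642 and 1504 in WT and 993, 1269.6 and 1222 in mutants, log2 difference -0.45). Of 391 C2H2 zinc finger genes, mostly repressors of transposons and genes, 57 rose and 21 fell (median 0.13), a called share of 19.9%. Of all tested genes 26.0% were called. Zfp385c had 117, 136 and 126 in WT and 253, 268 and 305 in mutants (log2 difference 1.11, SE 0.13, limma adjusted p = 0.0215). Histone deacetylase and sirtuin genes had 5 of 18 lower and 1 higher. Hdac11 had 1583, 1519 and 1374 in WT and 782, 963 and 932 in mutants (log2 difference -0.74, SE 0.10, limma adjusted p = 0.0215), and Hdac8 rose by 0.40. Of 25 SWI/SNF and CHD remodeller genes 5 rose and 1 fell, among them Pbrm1 at 0.36 and Smarca5 at 0.48. Called shares of the splicing factor, zinc finger and remodeller lists (18.5%, 19.9% and 24.0%) were thus below that of all tested genes. Those of the nuclear pore and deacetylase lists (65.4% and 33.3%) were above it. The authors' deposited table called fewer genes of these classes higher, with 9 nuclear pore, 0 splicing factor, 32 zinc finger and 2 remodeller genes, and it called 1 histone deacetylase gene lower.

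Genes of the primary cilium, a sensory projection of progenitors and neurons, were higher by a smaller amount. Of 34 cilia and intraflagellar transport genes 13 rose and 2 fell (median 0.29), a called share of 44.1% against 26.0% of all tested genes. Bbs9, a gene of the Bardet-Biedl complex that sorts ciliary cargo, had 432, 446 and 538 in WT and 836, 693 and 707 in mutants (log2 difference 0.66, SE 0.12, limma adjusted p = 0.0244). The transport genes Ift122 and Wdr35 and the transition zone gene Tmem67 rose by 0.38, 0.52 and 0.47. These 4 genes had no overlap between the groups, and the authors' deposited table called 5 cilia genes higher. Ift122 and Tmem67 did not pass there (authors' adjusted p = 0.126 and 0.0773). Without mutant library 1 there were 12 called higher and without WT library 3 there were 15, but each of the 4 fits without another library called 0.

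Transcription factor families of development, many of them Polycomb targets, held genes of both directions. Of 82 homeobox genes outside the Hox clusters 22 rose and 7 fell (median log2 ratio 0.08). Lhx1, a LIM homeobox gene of horizontal cells, had 56.5, 55.0 and 63.3 in WT and 139, 185 and 145 in mutants (log2 difference 1.40, SE 0.18, limma adjusted p = 0.0215). Dlx3, a distal-less family gene, had 62.4, 74.8 and 101 in WT and 182, 183 and 187 in mutants (log2 difference 1.23, SE 0.20, limma adjusted p = 0.0238). Gbx2 had 25.3, 30.1 and 38.2 in WT and 74.3, 82.9 and 81.6 in mutants (log2 difference 1.34, limma adjusted p = 0.0238). The 3 genes were low in WT and higher in every mutant library. Of 40 basic helix-loop-helix and related genes 10 rose and 6 fell (median 0.39). Hes2 had 15.6, 20.8 and 62.2 in WT and 109, 211 and 204 in mutants (log2 difference 2.57, SE 0.54, limma adjusted p = 0.027), and Olig2, a progenitor gene, had 171, 178 and 377 and 746, 746 and 688 (log2 difference 1.68, limma adjusted p = 0.0244). WT library 3 was the highest WT library for both. Neurod2, a neuronal differentiation gene, fell from 775, 743 and 554 to 392, 314 and 381 (log2 difference -0.92, limma adjusted p = 0.0239). Of 23 forkhead genes 6 rose and 1 fell, including the progenitor gene Foxn4 at 1.04, and of 15 Sox genes 3 rose, namely Sox8, Sox2 and Sox3 at 0.81, 0.73 and 0.44. Without mutant library 1 the forkhead median went from 0.206 to 0.029 and the Sox median from 0.222 to 0.018. Among 12 T-box and GATA genes Tbx3 alone passed. It had 1084, 1109 and 1324 in WT and 2261, 1895 and 1916 in mutants (log2 difference 0.79, SE 0.11, limma adjusted p = 0.0215). The ganglion cell subtype genes Tbr1 (646, 599 and 349 in WT and 84.3, 263 and 267 in mutants) and Eomes (1844, 1681 and 1334 and 634, 1173 and 1206) did not overlap and were not called (limma adjusted p = 0.0588 and 0.0762).

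Signalling classes held genes of both directions. Of 38 Wnt ligand, receptor and antagonist genes 12 rose and 6 fell (median 0.36). The receptor gene Fzd6 had 59.5, 65.4 and 77.4 in WT and 212, 153 and 147 in mutants (log2 difference 1.32, SE 0.20, limma adjusted p = 0.0238), whereas its relative Fzd1 had 903, 785 and 625 and 382, 424 and 431 (log2 difference -0.89, SE 0.14, limma adjusted p = 0.0238). The ligand gene Wnt4 fell by 1.31 on the log2 scale and Tcf7l2, a transcription factor gene at the end of the pathway, rose by 0.91. Of 44 BMP and TGF-beta genes 8 rose and 5 fell (median -0.02), a called share of 29.5% against 26.0% of all tested genes. The 4 with the smallest p-values were the signal transducer gene Smad3 at 482, 535 and 642 in WT and 908, 931 and 910.0 in mutants (log2 difference 0.74, SE 0.11, limma adjusted p = 0.0237) and Smad4, Smad5 and the receptor gene Bmpr1a at log2 differences of 0.43, 0.66 and 0.70. Of 27 FGF genes and feedback inhibitors 7 rose and 4 fell (median 0.24). Spry4, an inhibitor that FGF signalling induces, had 941, 842 and 835 in WT and 485, 417 and 449.6 in mutants (log2 difference -0.95, SE 0.09, limma adjusted p = 0.0174). The FGF target factor gene Etv5 moved the other way, from 623, 684 and 1199.6 to 1452, 1667 and 1622 (log2 difference 0.98, limma adjusted p = 0.0333), and Etv1 rose by 1.07.

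The 10 largest decreases (mean of 100 or more) also held Adcyap1, which encodes the neuropeptide PACAP of light-sensing ganglion cells, at 626, 574 and 404 in WT and 74.3, 150.4 and 165 in mutants (log2 difference -2.09, SE 0.33, limma adjusted p = 0.0238), and L3mbtl1, which encodes a chromatin-compacting protein, at 230, 179.6 and 121 and 26.6, 40.5 and 52.7 (log2 difference -2.12, limma adjusted p = 0.0238). With them the G protein regulator gene Rgs11, the exchange factor gene Plekhg4, Ahnak2 and Tusc5 fell with log2 differences of -2.25, -2.28, -2.19 and -2.05. Among the 10 largest increases Slc6a2, the noradrenaline transporter gene, had a mean of 35.3 ± 7.61 in WT and 165 ± 71.9 in mutants (SD, n = 3; log2 difference 2.13, SE 0.34, limma adjusted p = 0.0238). Rag1, which encodes a recombinase of lymphocytes, had 69.2, 69.6 and 78.5 in WT and 366, 222 and 223 in mutants (log2 difference 1.85, SE 0.23, limma adjusted p = 0.0215). No WT value of Rag1 came near a mutant value, and mutant library 1 was the highest. Prss56, a protease gene of Mueller glia, had 208, 168 and 481 in WT and 544, 1512 and 1464 in mutants (log2 difference 2.05, limma adjusted p = 0.036), and Frem2, Pla2g5, Gcnt1 and Oip5 rose by 1.96, 1.67, 1.64 and 1.63. The genes with the highest means in WT were Map1b, Ank2, Dync1h1, Adcy1 and Reln, whose counts per library could not be resolved. Map1b, a microtubule-associated protein gene of growing axons, had a mean of 14238 in WT and 11097 in mutants, and Ank2, the ankyrin gene of axons, 11694 and 7795.

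Markers of 4 other retinal cell classes had medians above 0, and those of horizontal cells did not. Of 12 cone markers 7 rose and none fell (median log2 ratio 1.09), of 18 amacrine markers 10 rose and 2 fell (median 0.56), 8 of 28 progenitor and Mueller glia markers rose with none lower (median 0.57), and of 21 rod and photoreceptor precursor markers 4 rose (median 0.67). Of all tested genes 13.7% were called higher. Of 10 horizontal cell markers 3 rose and 1 fell, with 5 above and 5 below 0 (median -0.12) and class levels that overlapped between the groups. Cngb3, a cone channel gene, had 243, 238 and 276 in WT and 621, 397 and 475 in mutants (log2 difference 0.96, SE 0.17, limma adjusted p = 0.0244). Gad2, a GABA synthesis gene of amacrine cells, had 619.8, 602 and 838 in WT and 1259, 1161 and 1274 in mutants (log2 difference 0.86, SE 0.13, limma adjusted p = 0.0238). Slc1a3, the glial glutamate transporter gene, had 1184, 1288 and 2107 in WT and 3022, 2726 and 2652 in mutants (log2 difference 0.92, limma adjusted p = 0.0304). The class level of the cone markers was 0.473 in WT library 3, against -0.227 and -0.226 in the other WT libraries. The rod gene Nr2e3 had 560.4, 626 and 936 in WT and 1922, 1140.4 and 1204 in mutants (log2 difference 1.00, limma adjusted p = 0.0372), with mutant library 1 highest. Class levels of the rod markers overlapped between the groups, at 0.266 in WT library 3 and 0.204 in mutant library 2. Their median log2 ratio was 0.219 when mutant library 1 was left out. Without mutant library 1 none of the rod or progenitor markers was called higher, and without WT library 3 there were 9 and 26. The fit without mutant library 1 called 1 rod marker lower. The 4 other fits called 0 of either list. The class level of the progenitor markers was -0.229, -0.177 and 0.428 in WT libraries 1 to 3 and 0.623, 0.564 and 0.527 in mutants, and that of the ganglion cell list was 0.061, 0.063 and -0.129 in WT and -1.273, -0.448 and -0.464 in mutants. Mutant library 1 thus had the lowest ganglion cell level. The share of each cell type was not measured apart from these genes, and its part in the other results was not tested.

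**Figure D4:**
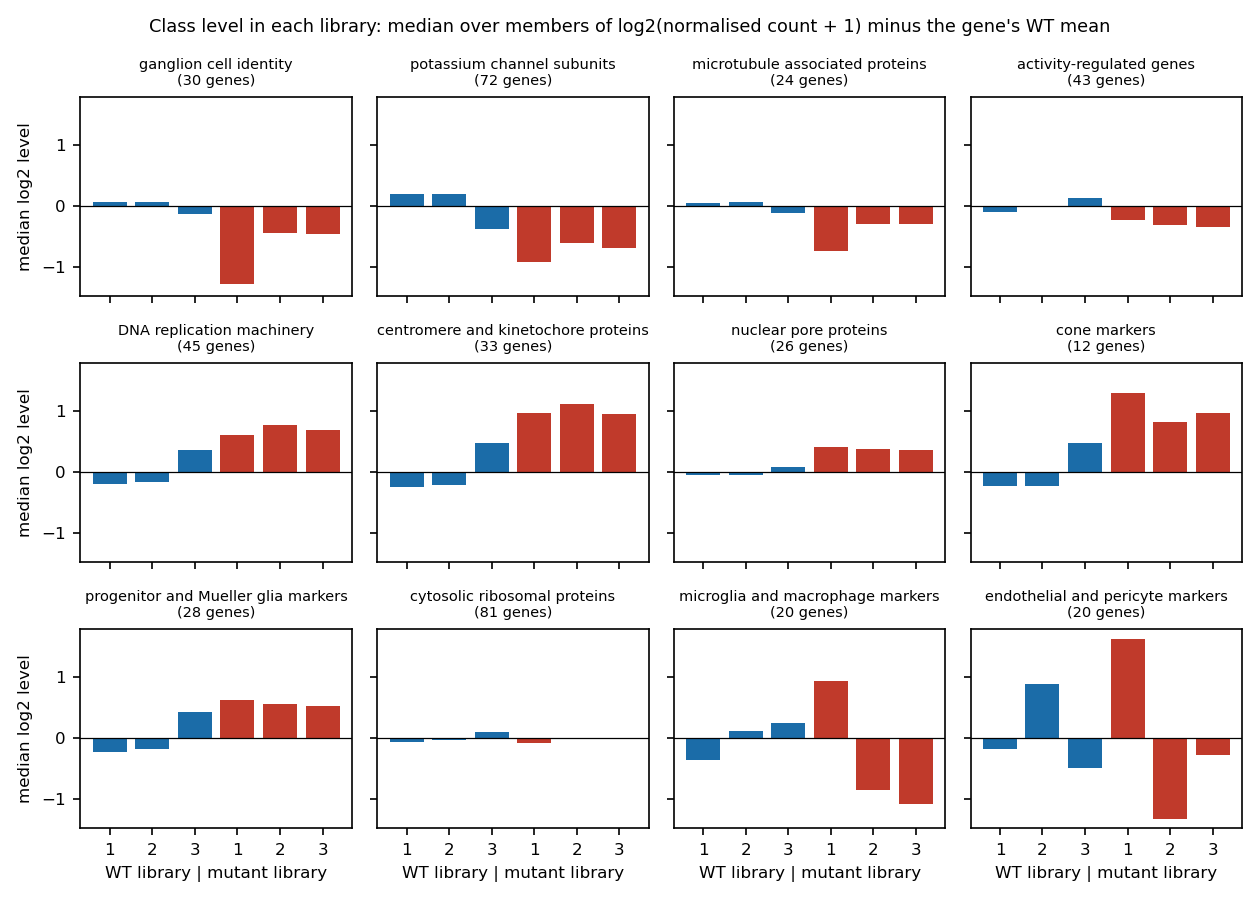
Class level of 12 gene lists in each of the 3 WT (blue) and 3 mutant (red) libraries, as the median over members of log2(normalised count + 1) minus the gene's WT mean. WT library 3 lies toward the mutants for replication, kinetochore, cone and progenitor genes, and mutant library 1 stands apart for ganglion cell, microglia and endothelial genes.

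Markers of astrocytes and of cells outside the neural retina differed by list. None of 20 microglia and macrophage markers passed, and their class level was 0.934 in mutant library 1 against -0.858 and -1.081 in mutant libraries 2 and 3. Trem2, a receptor gene of microglia, had 138, 177 and 204 in WT and 255, 72.3 and 64.6 in mutants, with mutant library 1 above and mutant libraries 2 and 3 below every WT library. Without mutant library 1, 10 of the 20 microglia markers were called lower. Of 20 endothelial and pericyte markers Kdr alone passed, from 3126, 3284 and 4279 to 5667, 4816 and 4839 (log2 difference 0.53, limma adjusted p = 0.0364), and Kdr is also expressed by retinal progenitors. The endothelial class level was 0.883 in WT library 2 and 1.633 in mutant library 1, above the other 4 libraries. Of 10 pigment epithelium and melanocyte markers 3 rose and 1 fell. Their class level was 1.430, 0.504 and 0.626 in mutant libraries 1 to 3, above the highest WT level of 0.346. Pmel, a melanosome gene, had 100.4, 93.4 and 153 in WT and 396, 189.9 and 222 in mutants (log2 difference 1.17, limma adjusted p = 0.0415). No astrocyte, lens or erythroid marker passed with limma. The astrocyte class level was nevertheless 1.155, 0.300 and 0.662 in mutant libraries 1 to 3 against at most 0.073 in WT, and 8 of 8 genes had ratios above 0. As with the microglia list, 0 passed with voom weights or in the authors' deposited table, and 2 of the 8 astrocyte genes and 0 in the other 3 lists had an unadjusted limma p under 0.05. Mutant library 1 was also the highest library of the lens and erythroid lists, at class levels of 1.532 and 1.326. Collagens and laminins had 8 of 52 higher and 6 lower, a called share of 26.9%, near the 26.0% of all tested genes. Their median log2 ratio of -0.48 ranged from -0.76 to 0.37 when a library was left out, so its sign depended on which library was left out. Within the list Col4a5 rose from 223, 291 and 438 to 790.3, 855 and 918 and Lama3 fell from 196, 171 and 93.8 to 42.2, 35.7 and 53.7, both with no overlap.

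In 7 tested genes the means differed by a log2 ratio beyond 2 and the test did not pass. Tpsab1, a mast cell tryptase gene, had 0, 8.31 and 0 in WT and 253, 5.78 and 104 in mutants, and Gfap, a gene of astrocytes and reactive glia, had 43.9, 17.7 and 44.7 and 427, 21.2 and 187. Mutant libraries 1 and 3 were high for these genes and mutant library 2 was not. Of the others, Smoc2 and Dpep1 were highest in WT library 2, and the photoreceptor gene Nxnl1 was highest in mutant library 1. In the predicted gene Gm17414 every mutant value lay below every WT value. These genes were picked with their values in view.

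Xist and the Y-linked genes varied widely between libraries of the same group. Xist, the RNA of the inactive X chromosome, had 1149, 3314 and 1969.5 in WT and 3.67, 2272 and 2652 in mutants, so it was near 0 in mutant library 1 and present in the others. The Y-linked gene Ddx3y had 533, 198 and 531 in WT and 744, 266 and 277 in mutants, so 5 of the 6 libraries held RNA of both sexes and mutant library 1 held next to no female RNA. None of the 5 X-inactivation and Y-linked genes tested passed. The X chromosome had 28.0% of its 486 tested genes called, with a median log2 ratio of -0.02, and the autosomes between 22.3% on chromosome 8 and 30.5% on chromosome 12, so the calls were spread over the genome.

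The longest genes were lower. Among protein-coding genes, the median log2 ratio was -0.04 for spans of 0 to 5 kb, 0.05 for 20 to 50 kb, -0.18 for 200 to 500 kb and -0.52 for the 201 genes over 500 kb, of which 43 fell and 16 rose. Of these 201 genes 29.4% were called in either direction, against 27.2% of all tested protein-coding genes. Only 10 of the 201 were in a channel or receptor class, and the median without them was -0.518. Many genes of that length encode adhesion and synaptic proteins of neurons, and the part of such genes outside the channel and receptor classes was not tested. By gene type, 27.2% of 13227 protein-coding genes, 12.7% of 545 long noncoding RNA genes and 18.5% of 124 pseudogenes were called. The median normalised count was 537 for protein-coding and 32.9 for long noncoding genes, so fewer reads stood behind the latter.

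**Figure D5:**
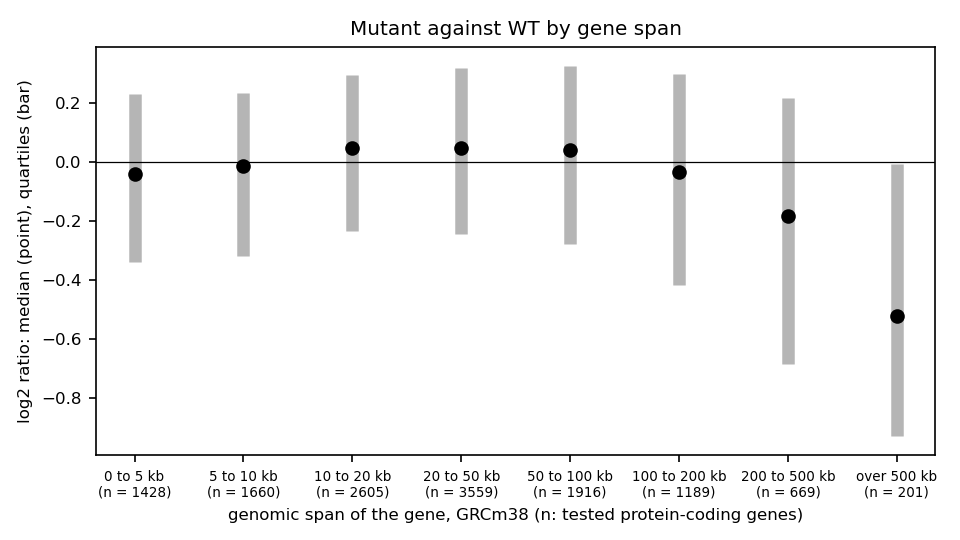
Median (point) and quartiles (bar) of the log2 ratio of mutant to WT means for protein-coding genes binned by genomic span on GRCm38, with the number of tested genes per bin. The median falls to -0.18 for genes of 200 to 500 kb and to -0.52 for genes over 500 kb.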

How the data were processed

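Poly(A) RNA of bead-selected RGCs was sequenced as single 75-cycle reads, per the labels' protocols and design text. The submitters' processing notes name STAR 2.3, featureCounts, DESeq and the build mm10, and the deposited tables name primary alignments and duplicate removal. The counting annotation and strand setting are not given in the sources used here. The authors deposited 1 table per comparison with mean normalised counts per group, their fold ratio, its log2 value, and DESeq p-values with adjusted p-values.

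Each deposited mean was resolved into whole reads of 3 libraries with the size factors its low values give (numba 0.67.0, whole number tolerance 1e-09). The share of genes resolved in each group is between 99.975% and 100.0%. The 6 genes left unresolved and named by their means are Ank2, Kif1b, Reln, Adcy1, Map1b and Dync1h1. The reads of the non-RGC libraries come from the other deposited table and were divided by size factors computed over all 9 libraries. The RGC values use the size factors of their own table, so RGC and non-RGC levels are not on exactly the same scale. No other columns of per-sample values exist (0).

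Genes with a mean of 10 or more were tested on log2(normalised count + 1) with limma 3.58.1 (R 4.3.3, variance trend) and Benjamini-Hochberg adjustment over all tested genes. Log2 differences and their SE are limma's and understate the change of low genes. Medians of gene classes use log2 of the ratio of group means, each plus 1. Tested on simulated data with 15260 genes, the test recovered 54 of 67 genes changed 1.5-fold and 67 of 67 changed 2-fold, with 10 false calls. Whether these rates hold for the real libraries, where WT library 3 and mutant library 1 stood apart, was not tested. They are therefore not an estimate of power or of false calls in the real comparison. 68 classes were defined by symbol, and 86 genes are in more than 1. A gene is named as a target, by the 10 smallest adjusted p-values, by the 10 largest changes each way (mean of 100 or more, no overlap, predicted genes passed over), among the 4 smallest p-values of its class, by the 5 highest means of a group, as on in 1 group and off in the other, or as sex-linked, and others are said to be chosen after their values were seen. Members and lists were chosen with earlier results of these data known. Positions and promoters are RefSeq's on GRCm38.p6, matched by symbol for 13981 genes (91.5%). Some items are not reported here.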

Additional observations from a re-analysis of the deposited data

How the results depend on the processing

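The count of called genes stayed within 1.5 times of 3971 under other scalings, pseudocounts, filters and voom weights (3098 to 4316), in the authors' deposited table (3024) and with all 9 libraries in 1 fit (5197). The authors' count is over all genes listed, and 3002 of those genes had a mean of 10 or more. By direction, the authors' deposited table called 1381 genes higher, 1374 of them with a mean of 10 or more. The fit of all 9 libraries called 2819 lower. Total-count scaling gave 2415 higher and 1901 lower and upper-quartile scaling 1990 and 2283, with the median of all genes at 0.0601 and -0.0055. Leaving out 1 library gave 3 to 6475 calls, 2 to 3381 higher and 1 to 3094 lower. The 4 fits with under 10 calls left out WT library 1 or 2 or mutant library 2 or 3, and kept both WT library 3 and mutant library 1. A fit chosen after seeing the data, without these 2 libraries, called 9028 genes, 4432 higher and 4596 lower, and leaving out the libraries farthest from their group lowers the spread by construction. Medians were above 0 in 37 of 68 classes, and in 31 to 38 when 1 library was left out. No paired analysis was possible because the tables carry no replicate numbers. The authors' deposited table called 3 axonal kinesin and 3 V-ATPase genes lower and 4 ubiquitin specific protease genes higher, against 6, 5 and 8 with limma. Count tests with edgeR or DESeq2 were not run on the recovered reads, and voom weights stood in for them.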
